A study of Mus musculus with 6 samples.

Results

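Etfb, Cd36, Acat1 and Acaa2, genes of fatty acid uptake and mitochondrial oxidation, were followed probe by probe through 6 deposited array files of mouse kidney. They are 4 of 9107 genes named on the array and were represented by 7 probes: 1 of Cd36, 1 of Etfb, 2 of Acaa2 and 3 of Acat1. Of 23040 spots, 15114 held a probe with 1 gene name. The genes were chosen on measured values, the amodiaquine ratios with loess over the whole array, so these ratios are given as a description, without a test. Kidneys came from male Swiss albino mice of 8 to 10 weeks, 4 per group, with tissue taken 24 h after dosing, and no transgene or pooling scheme is given in the labels. One group received the 4-aminoquinoline antimalarial amodiaquine at 120 mg/kg. Another received SP, the antifolate combination of sulfadoxine at 300 mg/kg and pyrimethamine at 15 mg/kg. The combined group, amodiaquine+SP, received all of these doses, and the reference in every hybridisation was RNA of DMSO-treated control mice. Each two-colour array set treated RNA against this vehicle RNA. The labels describe a dye swap: Cy5 marks treated RNA in replicate 1, and Cy3 marks it in replicate 2.

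Proximal tubule cells of the kidney run largely on fatty acids, which they take up from blood, carry into mitochondria as carnitine esters and shorten step by step to acetyl-CoA. Cd36 is a membrane receptor that takes up long-chain fatty acids. Etfb encodes the beta subunit of the electron transfer flavoprotein, which collects electrons from the acyl-CoA dehydrogenases and hands them on to the respiratory chain. Acaa2 encodes the mitochondrial thiolase that splits off acetyl-CoA at the end of each round. Acat1 encodes the mitochondrial acetoacetyl-CoA thiolase, which also serves ketone body and isoleucine breakdown. Nuclear receptors of the PPAR family, which bind elements built on AGGTCA, are known to regulate many genes of this pathway.

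The stretches upstream of a transcript start of Cd36 and Etfb are shown because these were the members with the lowest amodiaquine ratios. They cover 250 bases before the start that the RefSeq promoter table gives (GRCm38.p6), 5′ to 3′ on the gene's strand, at chr5:17835897-17836146 on the minus strand for Cd36 and chr7:43443822-43444071 on the plus strand for Etfb. Capitals mark every match to AGGTCA or its reverse TGACCT, the core of nuclear receptor elements, and to CCAAT or its reverse ATTGG, the NF-Y core. None of the matches overlapped. The Etfb stretch lies directly before the gene's RefSeq span, and the Cd36 stretch lies inside the gene's span, before an internal start.
Cd36: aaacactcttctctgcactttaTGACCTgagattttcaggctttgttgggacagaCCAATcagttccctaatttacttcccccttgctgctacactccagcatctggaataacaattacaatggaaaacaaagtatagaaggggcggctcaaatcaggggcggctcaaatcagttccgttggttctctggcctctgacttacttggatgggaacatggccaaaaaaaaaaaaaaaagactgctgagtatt
Etfb: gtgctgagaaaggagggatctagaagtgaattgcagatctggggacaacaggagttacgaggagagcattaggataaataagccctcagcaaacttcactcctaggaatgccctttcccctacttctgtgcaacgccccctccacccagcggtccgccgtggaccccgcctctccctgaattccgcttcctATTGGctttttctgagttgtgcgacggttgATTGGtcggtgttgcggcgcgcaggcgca
The Cd36 stretch held 1 AGGTCA match and 1 CCAAT match, with 3 CpG and 43.2% G+C. The Etfb stretch held 0 and 2, with 14 CpG and 55.6% G+C. Of 32851 RefSeq windows of the same length, 14% held the first motif and 33.8% the second, and the median G+C was 52.4%. A match in these letters is not a measured binding site. Acat1 and Acaa2 are named only.

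The files hold fewer measurements than their number gives. The 2 SP files shared 36.9% of their Cy3 foreground values and 34.4% of their Cy5 values, and the amodiaquine+SP files 41.9% and 28.2%, so each pair is 1 scan read with different grids. The amodiaquine pair shared 0.0911% and 0.122%, which leaves 4 distinct scans, and the member values below come from amodiaquine replicates 1 and 2, SP replicate 1 and amodiaquine+SP replicate 1. Each repeated scan carries opposite dye labels, so its direction is not settled and it is given as log2 Cy5 over Cy3. Over 1310 probes in blocks in register on both amodiaquine arrays, Cy5 over Cy3 correlated between the arrays at r = 0.14 with loess over the whole array and at 0.59 with loess within blocks. After the sign of replicate 2 is turned as labelled, these are -0.14 and -0.59, so the amodiaquine direction is not settled either, and values are given both ways. Of 7 proximal tubule markers on the array 6 passed the filter below, and the 7 had a median brightness percentile of 91.6, led by Lrp2, Miox and Pck1. The lowest were Ttr (71.2), which did not pass, and Gatm (60.0). Miox and Napsa lay in blocks in register on none of the 4 scans. Of the thick ascending limb markers, Umod was at 98.1 and Slc12a1, which did not pass, at 46.0. The endothelial markers ran from 39.2 to 84.8. The blood marker Alas2 and the adipocyte marker Plin1 were at percentiles of 1.80 and 2.93 respectively. Of the macrophage markers, Lyz2, in the displaced block 22, was at 96.8 and Csf1r, which did not pass, at 53.4. RNA of a whole kidney cannot tell fewer cells of a type from less RNA per cell.

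The spots of all 7 probes were bright as a group but seldom well measured in both dyes at once. The brightness percentile ranks a spot's mean log2 of foreground minus background, over both dyes and the 4 scans, among all spots. It was 75.0 for Cd36 and 91.3 for Etfb. For Acaa2 it was 84.5 in block 2 and 83.7 in block 20. For Acat1 it was 92.5 in block 9, 81.7 in block 44 and 69.5 in block 2. The member median was 83.7 against 50.8 over all named probes, and 30.6% of named probes were at least as bright as the dimmest member. These ranks rest on reading the 48 scanner blocks in a reordered sequence. Under that order 139 ribosomal protein probes had a mean rank of 0.828, against 0.550 by spot number, and by spot number the member median was 60.3. A rank says how bright a spot is and sets no level of one gene against another.

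Over the 28 readings (7 probes in 4 scans), the signal-to-noise ratio reached 2 in both dyes in 2, in 1 dye only in 14 and in neither in 12. The 2 readings were Cd36 in the SP scan and Acat1 of block 9 in amodiaquine replicate 1. The share, 7.14%, compares with 6.75% over all named probes and 33.9% over named probes past the filter. The filter asked that Cy3 or Cy5 reach this ratio on 2 scans or more, leaving out readings over a recorded background of 0. It passed 5 of the 7 member probes and 18.8% of named probes. The Acaa2 probe of block 2 and the Acat1 probe of block 44 did not pass. The latter passed only when its reading over a Cy3 background of 0 was counted. In 6 of the 28 readings a dye was at or below its local background.

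**Figure D1:**
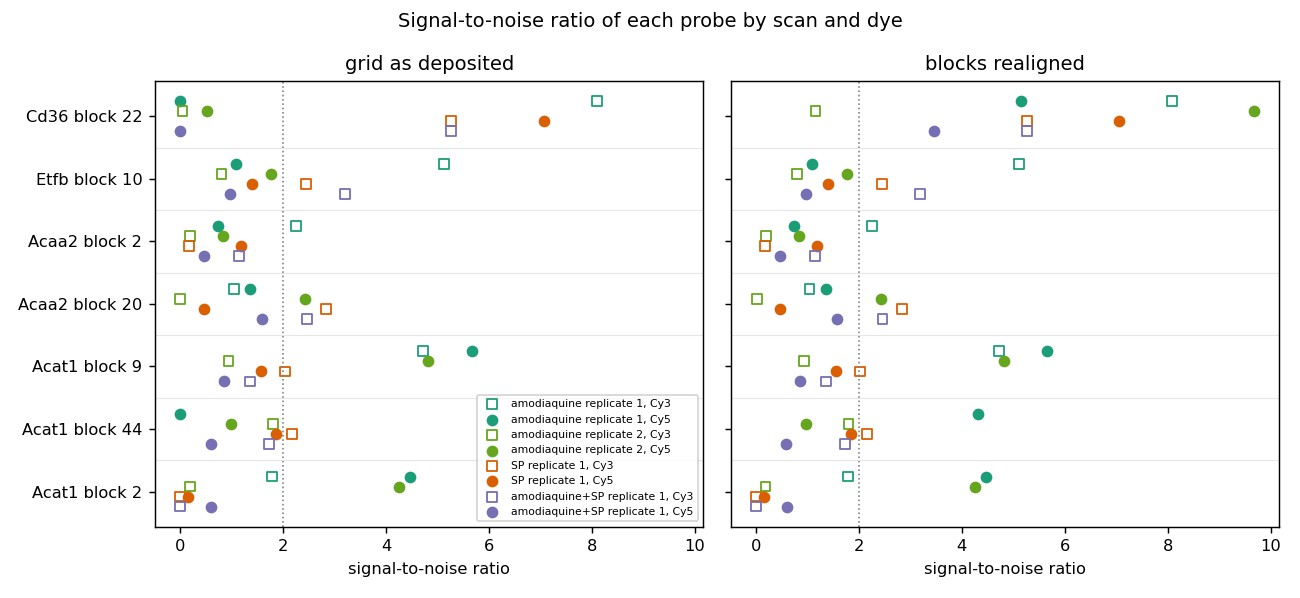
Signal-to-noise ratio (horizontal axis, no unit) of each of the 7 probes in Cy3 (open squares) and Cy5 (filled circles), coloured by scan, with the grid as deposited on the left and with blocks realigned on the right; the dotted line is at 2, and a Cy3 reading of Acat1 block 44 over a background of 0 is not drawn. Most points lie left of the line, and the Cd36 Cy5 readings move from 0, 0.52 and 0 to 5.15, 9.68 and 3.46 when the blocks are realigned.

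Grid placement touched some members and not others. A block counts as in register here if neither of its dye images needed a shift to match the other treatments' scans best and the dyes correlated with each other. Blocks 2, 9 and 10, which hold the Etfb probe, 1 Acaa2 probe and 2 Acat1 probes, were in register on all 4 scans. Block 20 was in register on all but amodiaquine replicate 2, where Cy3 was off by 1 column, and block 44 on all but amodiaquine replicate 1, where Cy5 was off by 1 column. Block 22, with Cd36, was in register on none. In all, 22 of the 28 readings were in register. In an alternative chosen after seeing the data, each dye image of a block was read at the shift that matched the other scans best, which moved 5 member readings. The equal foreground values at the same spot of the repeated SP files rose under it from 6.77% to 38.1% in Cy3 and from 9.14% to 35.9% in Cy5. Realignment sets the dyes and scans against each other. It does not settle which gene name a displaced block's spot carries.

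Cd36, the uptake receptor, gave the most extreme member reading, and in that reading the dyes had been read 1 row apart. In amodiaquine replicate 1 its Cy3 foreground was 4611 over a background of 381 and its Cy5 foreground 446 over 565. The log2 Cy5 over Cy3 ratio was -2.81, and -1.67 within its block. In amodiaquine replicate 2 the foregrounds were 872 in Cy3 over 831 and 1319 in Cy5 over 786, with a ratio of 0.26, and 0.13 within the block. Neither dye of that reading was well above background. In the SP scan both dyes were bright, at 5261 over 1350 and 5684 over 541, and the ratio was 0.13, with 0.12 within the block. In the amodiaquine+SP scan Cy3 was 3493 over 779 and Cy5 1185 over 1389, with ratios of -0.54 and -0.49. The low Cy5 readings of the first and last of these scans were both below local background.

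With block 22 realigned, Cy5 of amodiaquine replicate 1 at the Cd36 position was 5834 over 615 in place of 446 over 565. The log2 Cy5 over Cy3 ratio of that scan was then -0.68, and 0.08 within the block. In amodiaquine replicate 2 the realigned readings were 1584 over 674 in Cy3 and 9150 over 873 in Cy5, with ratios of 2.17 and 0.46. In amodiaquine+SP the realigned Cy5 was 4355 over 1168 and both ratios were -0.05. The spot was bright in every dye image after this step: its 8 dye percentiles ran from 79.3 to 95.7 with a median of 93.6, against 16.4 to 95.7 and 77.4 as deposited.

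Etfb, the electron carrier subunit, was read in register on all 4 scans, and Cy3 was the better measured dye in 3 of them. In amodiaquine replicate 1 Cy3 was 3656 over 475 and Cy5 1103 over 476, a log2 Cy5 over Cy3 ratio of -1.94 (-1.38 within the block). In amodiaquine replicate 2 Cy3 was 1341 over 847 and Cy5 2863 over 1219, and the ratio was 0.91 over the whole array and -0.24 within the block. Neither dye reached a signal-to-noise ratio of 2 there. In the SP scan Cy3 was 3573 over 1542 and Cy5 1565 over 485, with ratios of -0.70 and -0.76. In the amodiaquine+SP scan Cy3 was 3281 over 1131 and Cy5 2362 over 1354, with ratios of -0.25 and -0.20. Within blocks the Etfb ratio was therefore toward Cy3 in each of the 4 scans, whichever dye the labels give to the treated RNA.

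Acaa2, the thiolase of the oxidation spiral, had 2 probes that the platform table ties to the same clone, and they did not give the same ratios. The block 2 probe had log2 Cy5 over Cy3 ratios of -0.69 and 0.52 in amodiaquine replicates 1 and 2, 0.76 in the SP scan and -0.10 in the amodiaquine+SP scan. Within its block these were -0.55, 0.17, 0.87 and -0.10. A signal-to-noise ratio of 2 was reached in 1 of its 8 dye readings, Cy3 of amodiaquine replicate 1 at 2.25. The block 20 probe had ratios of -0.01 and 1.43 in the amodiaquine replicates, -1.40 in SP and 0.02 in amodiaquine+SP, and 0.05, 0.47, -1.32 and 0.04 within its block. Its Cy3 in amodiaquine replicate 2 was 815 over 853, at or below background, and 874 over 850 when realigned. In the SP scan the probes thus lay on opposite sides of 0 with either loess. The dimmer dye of both was poorly measured there, with a signal-to-noise ratio of 0.18 in block 2 and 0.47 in block 20.

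Acat1, the acetoacetyl-CoA thiolase, had 3 probes of 1 clone, and the best measured of them lay in block 9. That probe read 2651 over 328 in Cy3 and 3483 over 452 in Cy5 in amodiaquine replicate 1, with signal-to-noise ratios of 4.72 and 5.67. Its log2 Cy5 over Cy3 ratio was -0.41 there and 1.97 in amodiaquine replicate 2, where Cy3 was 1064 over 545 and Cy5 5716 over 1103. Within the block these were -0.20 and 0.00. The amodiaquine replicate 2 value thus lay near 0 once its block was taken as the reference. In the SP scan the ratios were -0.33 and -0.32, and in the amodiaquine+SP scan -0.11 and 0.05.

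The Acat1 probe of block 2 read 4126 over 977 in Cy5 and 2142 over 839 in Cy3 in amodiaquine replicate 1, a log2 Cy5 over Cy3 ratio of 0.21. In amodiaquine replicate 2 Cy5 was 5817 over 978 and Cy3 972 over 831, and the ratio was 2.39. It was 0.17 and 0.57 on these scans within the block. In the SP and amodiaquine+SP scans its Cy3 was below local background and its ratios were 0.36 and 0.11. The probe of block 44 had ratios of -0.12 and -0.23 on the amodiaquine arrays, -0.22 in SP and -0.10 in amodiaquine+SP. Within the block they were -0.15, 0.30, -0.35 and -0.10. Its Cy3 in amodiaquine replicate 1, 198, stood over a recorded background of 0, and its Cy5 rose from 672 over 775 to 2399 over 317 on realignment, giving 0.53 in place of -0.12.

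**Figure D2:**
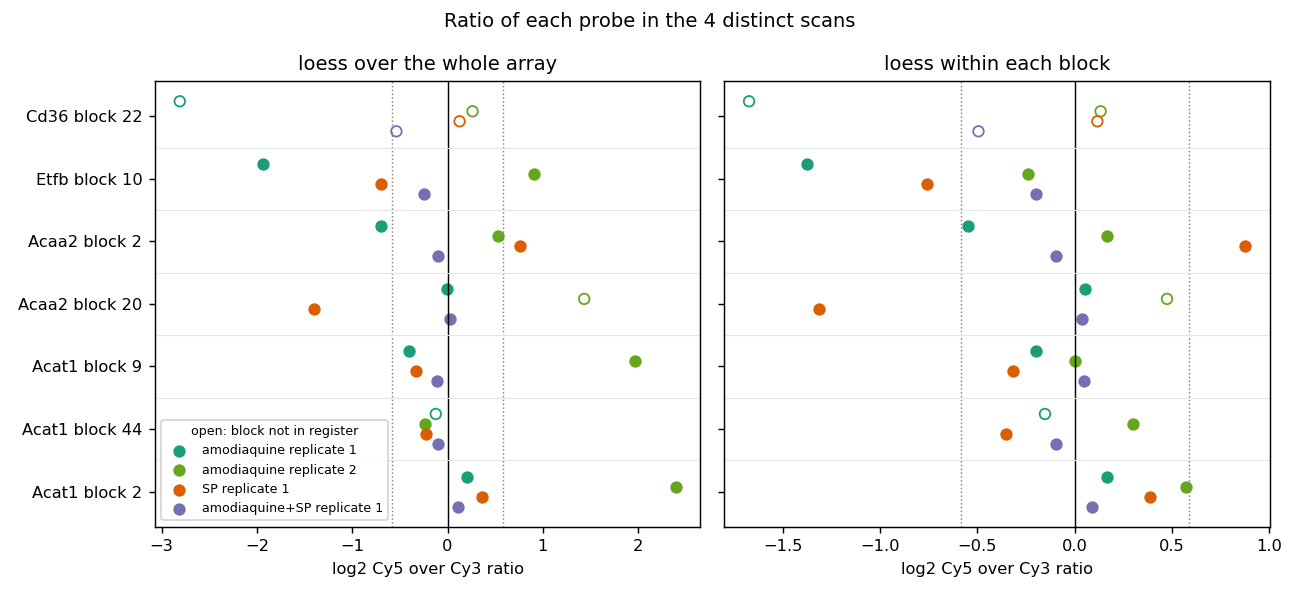
Log2 Cy5 over Cy3 ratio (horizontal axis) of each probe in the 4 distinct scans, with loess over the whole array on the left and within each block on the right; open points lie in blocks not in register, dotted lines mark 1.5-fold, and the horizontal scales differ. On the left amodiaquine replicate 2 reads toward Cy5 in 6 of 7 probes and up to 2.39, and on the right none of its 7 readings is past 1.5-fold. Of all probes past the filter on that array, 46.0% with whole-array loess were past 1.5-fold toward Cy5 and 19.0% toward Cy3. With loess within blocks the shares were 18.6% and 19.3%.

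The amodiaquine comparison asked which kidney genes differ between drug and vehicle. With the sign of replicate 2 turned as labelled and loess over the whole array, Cd36 had a mean log2 ratio of -1.54 ± 1.80 (SD, n = 2 arrays here and below). Etfb had -1.42 ± 0.73. The Acaa2 probes had -0.61 ± 0.12 (block 2) and -0.72 ± 1.01 (block 20). The Acat1 probes had -1.19 ± 1.10 (block 9), 0.06 ± 0.25 (block 44) and -1.09 ± 1.84 (block 2). By size alone, 6 of the 7 were at least 1.5-fold lower. These ratios chose the genes, and 38.9% of the 4424 probes past the filter were as low. Only 5 of the 7 member probes are among the probes past the filter, here and in the member counts below. On both arrays at once only Etfb was at least 1.5-fold lower, a size reached by 14.0% of the probes past the filter. The SD exceeded the mean in size for 4 of the 7 probes: Cd36, Acaa2 of block 20, Acat1 of block 44 and Acat1 of block 2.

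By the labels, the amodiaquine channel of 5 member probes was not well above background on either array with the grid as deposited. With blocks realigned this held for 3, Etfb and both Acaa2 probes, since Cd36 and Acat1 of block 44 then had a signal-to-noise ratio of 5.15 and 4.31 in Cy5 of replicate 1. The vehicle channel of Etfb was well above background on 1 of the 2 arrays (5.12, against 1.78 in replicate 2). That of Acaa2 was so on 1 array in block 2 (2.25) and in block 20 (2.44). The sizes of these ratios therefore rest on readings near background, and no fold is drawn from them. For Acat1 of block 44 neither channel was well above background on either array as deposited. The remaining Acat1 probes had 1 amodiaquine reading above that mark each, in replicate 1.

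The member ratios stood beside shifted values of the blocks they lay in. With loess over the whole array, the median turned ratio of the probes past the filter, as the mean of both arrays, was -0.99 in block 9 (100 probes), -1.05 in block 10 (92) and -0.87 in block 2 (92). It was -0.91 in block 20 (87) and -0.69 in block 22 (105). Block 44 (87 probes) had 0.34, and its Acat1 probe was the single member not below 0. In amodiaquine replicate 2 alone these medians ran from -1.97 in block 20 to 1.13 in block 44. Set against the median of its own block, the turned mean of Cd36 differed by -0.84 and that of Etfb by -0.37. The differences were 0.26 and 0.19 for the Acaa2 probes of blocks 2 and 20. For the Acat1 probes of blocks 9, 44 and 2 they were -0.20, -0.29 and -0.23. Of the 7 probes only Cd36, whose dyes came from different rows, lay at least 1.5-fold from its block's median. Cd36, the lowest member, lay in the least low of the 5 blocks below 0. The Acaa2 and Acat1 probes of block 2 had -0.61 and -1.09. The part of position in the member ratios was not tested.

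With loess within each block, which also removes any change that a whole block shares, the turned means drew toward 0. Cd36 had -0.90 and Etfb -0.57, with Etfb of opposite sign on the arrays (-1.38 and 0.24). The Acaa2 probes had -0.36 and -0.21, and the Acat1 probes -0.10, -0.23 and -0.20. Only Cd36 remained 1.5-fold lower, 1 of 7 against 13.4% of all probes past the filter. On both arrays at once no member was, against 3.32%. Realignment alone, with whole-array loess, left the ratios about as low: Cd36 had -1.42 (-0.68 and -2.17), the member median was -1.06, and 5 of 7 members were at least 1.5-fold lower against 33.5%. On both arrays at once 2 members were, Cd36 and Etfb, against 10.2%. With blocks realigned and loess within blocks, Cd36 had -0.19 (0.08 and -0.46), Etfb -0.57 and Acat1 of block 44 0.10, and 0 of 7 members reached 1.5-fold against 7.88%. The member median was -1.09, -0.23 and -0.19 with whole-array loess, within-block loess, and within-block loess after realignment, and the median of all probes past the filter was -0.19, 0.00 and -0.01. The number of member probes with the same turned sign on both arrays was 5, 4 and 2 of 7. The same share over all probes past the filter was not computed, so these counts do not set the members apart.

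**Figure D3:**
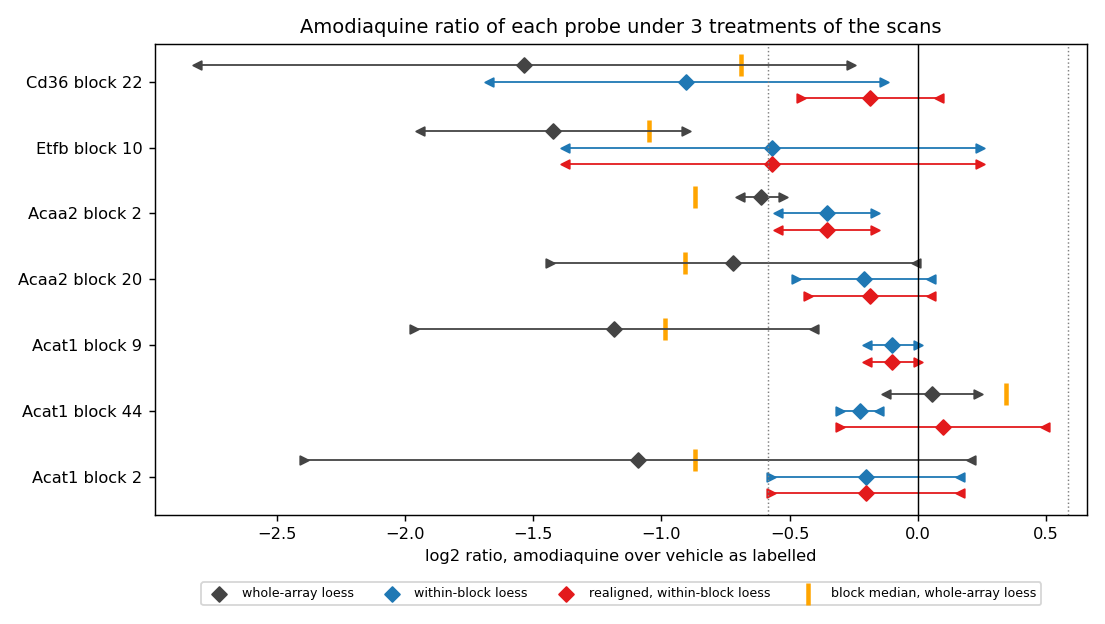
Log2 ratio of amodiaquine over vehicle, as labelled, for each probe (horizontal axis); diamonds are means, left- and right-pointing triangles are replicates 1 and 2, colours are the 3 treatments of the scans, dotted lines mark 1.5-fold, and the orange bar is the median of the probe's block with whole-array loess. The whole-array mean of Acat1 block 9, -1.19, lies beside its block median of -0.99, and the realigned within-block means lie between -0.57 and 0.10.

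Without turning replicate 2, the mean log2 Cy5 over Cy3 ratio with whole-array loess was -1.27 for Cd36, -0.52 for Etfb, -0.085 for Acaa2 of block 2 and 0.71 for Acaa2 of block 20. The Acat1 probes had 0.78, -0.18 and 1.30 in blocks 9, 44 and 2. Of the 7 probes, 1 read toward Cy5 in replicate 1 and 6 in replicate 2. Of all probes past the filter, 27.8% in replicate 1 and 46.0% in replicate 2 were at least 1.5-fold toward Cy5. The shares toward Cy3 were 28.2% and 19.0%. Across all 4424 probes limma called 0 for amodiaquine (0.0%) at a Benjamini-Hochberg adjusted p under 0.05, with 203 at an unadjusted p under 0.05 and the smallest adjusted p at 0.397. With 2 arrays this fit had 1 residual degree of freedom. No member probe was called in it or in any of 9 alternatives, of which an intensity trend with a robust prior called 6 probes and a fit of all 6 files with a dye term called 1. Only the 5 member probes past the filter were in the main fit, while the fit without a filter held all 7. With background subtracted and in the authors' deposited values, Cd36 and Acaa2 of block 20 also lacked a value on an array and were not fitted.

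The SP and amodiaquine+SP scans addressed the response to the antifolates and to the full combination, with 1 scan each, so their ratios have no replicate and no test. In the SP scan Acaa2 of block 2, which did not itself pass the filter, was past 1.5-fold toward Cy5 at 0.76, against 20.7% of probes past the filter. Acaa2 of block 20 (-1.40) and Etfb (-0.70) were past it toward Cy3, against 24.7%. Within blocks the same 3 probes were past it, at 0.87, -1.32 and -0.76, against 19.2% and 24.2%. The member median was -0.22 (-0.32 within blocks), with readings from -1.40 to 0.76. In the amodiaquine+SP scan no member was past 1.5-fold in either direction with normexp correction and either loess. The shares among probes past the filter were 7.96% toward Cy5 and 12.6% toward Cy3, and 8.54% and 10.4% within blocks. Its largest member value was -0.54 for Cd36, which was -0.05 realigned. With background subtracted, 5 members had a value there and 3 were past 1.5-fold toward Cy3, against 28.9%: Etfb (-1.16), Acaa2 of block 2 (-1.20) and Acat1 of block 44 (-0.69). In the authors' deposited values the count was also 3 of 5, against 28.8%. The second file of the SP scan gave 1.99 for Acaa2 of block 20, the opposite side from the first, and -1.02 with blocks realigned. The second amodiaquine+SP file gave 2.54 for that probe (-0.15 realigned) and 0.70 for Acat1 of block 9 (0.49 realigned). Whether the drugs moved any of the 4 genes in these scans was not tested.

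The other genes of the pathway were read from lists written with earlier results of these data known. The lists held 100 genes, of which 58 were on the array and 21 had a brightest probe past the filter, 18 of them other than the 4 genes. By role, 7 of 10 genes of uptake and binding passed, 3 of 9 of activation and the carnitine shuttle, and 1 of 14 of the oxidation spiral. The counts were 1 of 3 for the electron transfer flavoprotein, 2 of 2 for acetyl-CoA and ketone body enzymes, 4 of 9 for peroxisomal oxidation and 3 of 11 for regulators. By this rule of the brightest probe, the spiral was represented by Echs1, the enoyl-CoA hydratase, alone. Acaa2 also belongs to the spiral, and its dimmer probe, that of block 20, passed the filter. The next brightest genes of their lists, the very long-chain dehydrogenase gene Acadvl (percentile 84.8) and Etfdh (69.7), which passes electrons on from the flavoprotein, did not pass.

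In the turned amodiaquine means with whole-array loess, which hold only for the labelled swap, 5 of the 18 were at least 1.5-fold lower, against the 38.9% of all probes, and Vldlr, the VLDL receptor, was the single gene past that size higher (2.16), against 14.1%. Their median was -0.26. The 5 were Slc27a2, a fatty acid transport protein (-1.32), Echs1 (-0.96), the aminotransferase gene Got2 (-1.47), the peroxisomal transporter gene Abcd4 (-1.01) and the nuclear receptor gene Pparg (-0.71); the last 3 and Lpl, named below, were picked after their values were seen. Log2 Cy5 over Cy3 in replicates 1 and 2 was -3.91 and -1.27 for Slc27a2, 1.96 and 4.90 for Got2, and 1.15 and 2.56 for Pparg. Their turned signs were thus opposite on the arrays, while Echs1 and Abcd4 were lower on both. Within blocks Slc27a2 had -0.12, Echs1 -0.02 and Got2 -0.42, and Pparg had 1.59. Abcd4, at -0.94, was then the only one of the 18 at least 1.5-fold lower, against 13.4%, and their median was -0.08. Vldlr (block 39), Got2 (block 13) and Pparg (block 23) lay in blocks not in register on either amodiaquine array. Slc27a2 (block 47) was not in register on replicate 1, where its Cy3 had no usable signal-to-noise ratio. Cy5 of Vldlr in replicate 2 and Cy3 of Got2 on both arrays had a signal-to-noise ratio of 0. For Abcd4 it was 0 in Cy3 of replicate 2 and 0.22 in Cy5 of replicate 1. With blocks realigned and loess within blocks, Vldlr had 0.77, Got2 -2.67 and Pparg 0.21. Echs1 shares block 9 with the Acat1 probe that had -1.19 and -0.10.

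Unturned, the list genes read differently. In the mean log2 Cy5 over Cy3 ratio of the 2 arrays with whole-array loess, 7 of the 18 were at least 1.5-fold toward Cy3, against 16.5% of all probes, and 5 toward Cy5, against 37.9%. Within blocks the counts were 6 and 4, against 20.3% and 19.7%. With whole-array and then within-block loess, Hsd17b4 had -2.08 and -2.06, Crot -1.62 and -1.57, Ech1 -1.32 and -1.15, Lpl -1.11 and -0.89, and Oxct1 -1.06 and -0.32. Slc27a2 had -2.59 and -0.69, Got2 3.43 and 0.44, Pparg 1.86 and 1.75, and Vldlr 0.11 and 0.75. Ratios of the same sign on both arrays, such as those of Hsd17b4 (-2.02 and -2.14), cancel when replicate 2 is turned. Hsd17b4 and Oxct1 lay in block 34, which was not in register on either amodiaquine array, with both dyes off by 1 column.

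With the labelled swap, the amodiaquine means of other bright list genes, those not past 1.5-fold, follow with whole-array and then within-block loess. The acyl-CoA binding protein gene Dbi had 0.21 and 0.36, and Acbd3 -0.32 and -0.46. The carnitine-acylcarnitine carrier gene Slc25a20 had -0.47 and -0.00, the carnitine octanoyltransferase gene Crot -0.18 and -0.14, and the carnitine transporter gene Slc22a5 0.20 and -0.17. Oxct1, which starts the use of ketone bodies, had -0.11 and -0.07. In peroxisomes Phyh had 0.19 and 0.13, Ech1 -0.29 and -0.13, and Hsd17b4 0.06 and -0.09. The acetyl-CoA carboxylase genes Acacb and Acaca had 0.12 and 0.16, and -0.46 and 0.27. Dbi (block 36) and Phyh (block 32), like Oxct1 and Hsd17b4 (block 34), lay in blocks not in register on either amodiaquine array. Which gene name such a spot carries is not settled. These 11 genes were taken as those whose turned means were not past 1.5-fold, so that they stay under it is no finding. Several of their unturned means, given above, were past it.

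**Figure D4:**
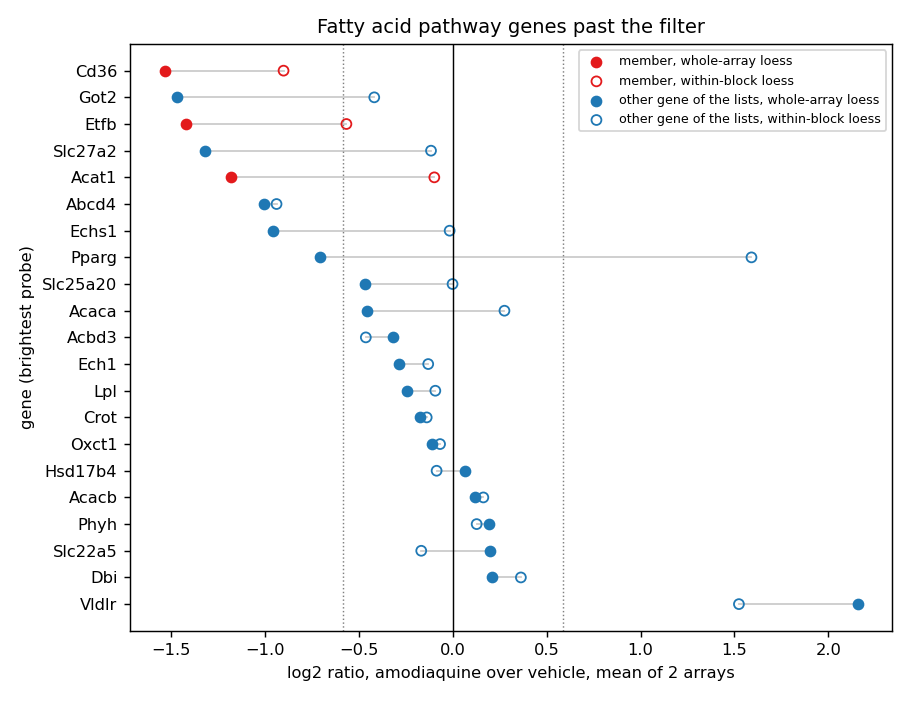
Mean log2 ratio of amodiaquine over vehicle, as labelled (horizontal axis), for the 21 pathway genes whose brightest probe passed the filter; filled points are whole-array and open points within-block loess, red marks Cd36, Etfb and Acat1, and dotted lines mark 1.5-fold. Acaa2 is not drawn because its brightest probe did not pass; the red points move from -1.54, -1.42 and -1.19 to -0.90, -0.57 and -0.10.

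In the SP scan, 3 of the 18 genes were past 1.5-fold toward Cy5 and 3 toward Cy3 with whole-array loess. The shares among probes past the filter were 20.7% and 24.7%. Within blocks the counts were 3 and 5, against 19.2% and 24.2%. For the amodiaquine+SP scan the counts were 3 and 0 with either loess. The shares there were 7.96% and 12.6%, and 8.54% and 10.4% within blocks. Vldlr was on the Cy5 side in both scans, at log2 Cy5 over Cy3 of 3.25 and 1.38 with whole-array loess. Its Cy3 was not well above background in either, with a signal-to-noise ratio of 0.36 in each. The probes whose log2 Cy5 over Cy3 pattern was nearest to each member's were taken by Euclidean distance over the 4 scans, among named probes past the filter. For Cd36 they were Tgm2 (distance 0.386), Dnttip1 (0.549) and Dgcr6 (0.696), against a median distance of 3.51. For Etfb they were Rplp1 (0.347), Fanca (0.372) and Irak1 (0.431), against 2.90. For Acat1 of block 9 they were Rnf11 (0.156), Foxp1 (0.172) and Eif2b3 (0.196), and for Acaa2 of block 2 Dus3l (0.429), Wdr24 (0.431) and Zfp335 (0.504). None of these 12 probes belongs to the pathway lists, and 4 scans set the pattern. The lists had only 21 genes with a brightest probe past the filter, while 2838 probes were searched for Cd36, so this absence says nothing of the members. The Cd36 pattern holds readings whose dyes came from different rows. Its 3 nearest probes lay in blocks 47 and 44, not in register on amodiaquine replicate 1. Several of the other nearest probes also lay in blocks not in register on an amodiaquine array.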

How the data were processed

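RNA of 3 treatments was measured against vehicle RNA on two-colour arrays. The deposited scanner files hold, for each spot and dye, a linear foreground intensity, its local background and a signal-to-noise ratio from the authors' scanner software. The authors' deposited log2 ratios, LOWESS normalized per the series' design text, served as an alternative. No genome build of the probe design was stated, so no probe coordinates are printed, and the upstream stretches carry those of the RefSeq table.

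Names were joined by the reordered blocks (48 blocks of 480 spots, 20 rows by 24 columns), and 8991 of 9107 named genes matched RefSeq (GRCm38.p6). Background was corrected with normexp (offset 50), and loess was run over the whole array or within blocks in limma 3.58.1 under R 4.3.3. Tables were made in Python 3.11.15 with pandas 2.3.3, numpy 2.4.6 and scipy 1.17.1. The filter passed 4424 probes. In SP replicate 1, 58 spots without a Cy5 background were left out after correction. In amodiaquine replicate 1 the Cy3 background was 0 at 7079 spots, and no signal-to-noise ratio was used there. Blocks counted in register numbered 20 and 25 in amodiaquine replicates 1 and 2, 35 in SP replicate 1 and 30 in amodiaquine+SP replicate 1, with shifts up to 3 rows or columns tried and a rank correlation between dyes of at least 0.5 required. The amodiaquine fit used the turned log2 ratios of its 2 arrays with no covariate. Its code was run on simulated ratios without dye or block effects, so that run cannot show how the fit behaves under them.

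The members and lists were chosen with earlier results of these data known, and the realignment after the data were seen. Named were every probe of the 4 genes, 2 to 4 genes of each pathway list by the brightness of their brightest probe, and the 3 nearest probes by distance for each member's brightest probe. Nothing in the labels says that the arrays of a pair held separate RNA extracts, and p-values measure only the spread between these arrays, which may be technical. The number of scans limits the precision.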

Additional observations from a re-analysis of the deposited data

How the results depend on the processing

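No paired analysis was possible because the replicate numbers name the dye orientation of arrays that each hold both RNAs. Leaving out an amodiaquine array leaves the limma fit no residual degrees of freedom, so only values are given. The count of called probes (0) was 6 with an intensity trend and robust prior, 1 with all 6 files and a dye term, and 0 in the other 7 alternatives. The member median of the turned amodiaquine log2 ratio, -1.09, was -0.23 with loess within blocks, -0.19 realigned as well, -2.11 with background subtracted, -2.11 with the authors' deposited values (4 of 7 probes each) and -0.085 with replicate 2 not turned, and from -0.91 to -0.41 without 1 array. Acat1 of block 2 changed sign on leaving out an array (-2.39 to 0.21). With replicate 2 not turned, Acaa2 of block 20 (0.71) and Acat1 of blocks 9 (0.78) and 2 (1.30) changed sign, and Acat1 of block 44, near 0 at 0.06, read -0.18; it read -0.23 within blocks and -0.12 without replicate 2. Acaa2 of block 20 also changed sign in the second SP file (1.99) and moved from 0.02 to 2.54 in the second amodiaquine+SP file. Realignment alone gave a member median of -1.06. The median brightness percentile by spot number was 60.3. Pathway genes past 1.5-fold numbered 3 with loess within blocks for amodiaquine (6 with whole-array loess) and 9 with background subtracted for amodiaquine+SP (3 with normexp). The cause of these moves was not tested. Of the remaining member values, 38 for amodiaquine, 40 for SP and 38 for amodiaquine+SP were counted as kept within a spread. Another 12, 6 and 7 moved further. For amodiaquine the spread of a probe was the SD of 2 arrays, 1.80 for Cd36, so a kept value can still have drawn toward 0. Cd36 was counted as kept at -0.19 with blocks realigned and loess within blocks, against -1.54. SP and amodiaquine+SP have 1 scan each, so their counts measure no spread between arrays. Signal over background limits the member ratios: in 26 of 28 readings at least 1 dye was not well above background.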
